A study of Arabidopsis thaliana with 28 samples.

Results

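The genes described here lead from phenylalanine to activated cinnamic acids and on to sinapate esters in Arabidopsis thaliana. They were chosen by locus and function, with earlier results of these data known, and number 10 of the 33557 genes in the table of expression values. PAL1 (AT2G37040), PAL2 (AT3G53260) and PAL4 (AT3G10340) encode phenylalanine ammonia-lyase, C4H (AT2G30490) encodes cinnamate 4-hydroxylase, and 4CL1 (AT1G51680), 4CL2 (AT3G21240) and 4CL3 (AT1G65060) encode 4-coumarate:CoA ligase. FAH1 (AT4G36220) encodes ferulate 5-hydroxylase, UGT84A2 (AT3G21560) a sinapate glucosyltransferase, and SNG1 (AT2G22990) the enzyme that makes sinapoylmalate. All 10 passed the filter on low values that left 18678 genes for testing.

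Phenylalanine ammonia-lyase removes ammonia from phenylalanine to give cinnamate, C4H hydroxylates it, and the ligases attach coenzyme A, which makes the substrate shared by lignin, flavonoids and soluble esters. In the sinapate branch FAH1 adds the hydroxyl group that later carries the second methoxyl group of sinapate, UGT84A2 joins sinapate to glucose, and SNG1 moves the sinapoyl group from glucose to malate. Sinapoylmalate is the main soluble phenylpropanoid of Arabidopsis leaves and screens ultraviolet light. In this plant 4CL3 is known mainly for a role in flavonoid synthesis and 4CL1 and 4CL2 for roles in lignin synthesis.

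Transcript levels came from poly(A) RNA-seq of Col-0 wild-type seedlings kept in darkness for 3 days, and of seedlings of the same age moved to white light of 100 µmol m-2 s-1 (LEDs of blue, red and weak far-red light) for 15 min, 30 min, 1 h, 3 h, 6 h or 12 h. All seedlings had received a short pulse of white light to start germination, roots were cut off, and hypocotyls were separated from cotyledons, which kept the shoot apex, after collection in cold acetone. With 2 tissues, 7 times and biological replicates A and B, there were 28 libraries in 14 groups. Values are FPKM, fragments scaled to transcript length and library size, and changes are differences of log2(FPKM + 1), a scale on which genes of low level change less than in FPKM. The summed FPKM still differed between libraries. It was 774142 and 809446 in dark cotyledons, 1105010 and 1135391 in cotyledons at 12 h, and 753523 to 853003 in hypocotyls. The part of these sums in the changes was not tested beyond the fit with quantile normalization. Light at every time is compared with the same dark libraries of that tissue, and the later times have no dark libraries of their own, so that age and time of day cannot be told apart from light.

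The relative depth of the libraries, read from the steps between low FPKM values, ran from 0.614 to 1.719, both in libraries taken at 1 h, replicate A of cotyledons and replicate B of hypocotyls. The shallowest library also held 20.5% of its summed FPKM in chloroplast-encoded genes, against 4.23% in its replicate and 1.57% to 9.59% in the other cotyledon libraries, and its values stand beside those of its replicate for each of the 10 genes described at 1 h. The counts at 1 h in cotyledons include it. Markers of xylem and secondary walls summed to 39.3 to 72.9 FPKM in cotyledon libraries and 175 to 341 FPKM in hypocotyl libraries. Of the 6 shoot apex markers, KNAT1 held 18.1 and 15.3 FPKM in dark cotyledons and 110 and 115 FPKM in dark hypocotyls. STM held 10.9 and 9.11 FPKM in dark cotyledons and 0.576 and 0.913 FPKM in dark hypocotyls, where WUS, CLV3 and CUC2 were at 0 in both libraries. The 6 markers summed to 111 and 116 FPKM in dark hypocotyls and to 228 and 235 FPKM after 3 h, when KNAT1 was called higher, and to 18.6 to 33.0 FPKM in all cotyledon libraries. The 5 epidermis markers summed to 816 to 2190 FPKM in cotyledons and 1370 to 2830 FPKM in hypocotyls. In cotyledons that sum went from 1190 and 921 FPKM in darkness to 2050 and 2190 FPKM after 3 h, when 1 of the 5, PDF1, was called higher. The 3 h libraries with the higher marker sums are also those with many of the calls given below, and the part of these markers in them was not tested. In such bulk tissue, fewer cells of a type and less RNA per cell cannot be told apart.

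The sequences just upstream of 7 of the genes are shown because paralogs among them differ in tissue or light response, and because FAH1 and UGT84A2 had the highest changes. Each runs 5′ to 3′ over the 150 bases before the annotated start of the gene in the TAIR10.1 assembly of RefSeq. Capitals mark the AC elements, the G-box and its core, whose letters are given after the sequences and were searched on both strands. They lie at chr2:15560756-15560905 (minus strand), chr3:19747115-19747264 (minus strand), chr3:3203838-3203987 (plus strand), chr3:7457405-7457554 (minus strand), chr1:24171636-24171785 (minus strand), chr4:17139778-17139927 (minus strand) and chr3:7595530-7595679 (plus strand), in the order printed.
PAL1: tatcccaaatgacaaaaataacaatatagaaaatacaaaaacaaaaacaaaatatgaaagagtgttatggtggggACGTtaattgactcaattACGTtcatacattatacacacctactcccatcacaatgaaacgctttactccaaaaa
PAL2: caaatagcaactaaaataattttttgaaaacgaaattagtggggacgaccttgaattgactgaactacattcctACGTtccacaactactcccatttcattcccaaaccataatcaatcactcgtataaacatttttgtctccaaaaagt
PAL4: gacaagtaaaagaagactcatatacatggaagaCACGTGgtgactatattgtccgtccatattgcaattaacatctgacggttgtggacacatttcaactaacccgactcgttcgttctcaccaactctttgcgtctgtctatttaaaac
4CL2: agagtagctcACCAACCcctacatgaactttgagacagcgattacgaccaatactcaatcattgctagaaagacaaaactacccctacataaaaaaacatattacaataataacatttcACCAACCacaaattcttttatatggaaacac
4CL3: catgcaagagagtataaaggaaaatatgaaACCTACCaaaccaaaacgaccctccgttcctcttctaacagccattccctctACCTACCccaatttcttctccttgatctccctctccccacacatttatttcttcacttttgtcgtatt
FAH1: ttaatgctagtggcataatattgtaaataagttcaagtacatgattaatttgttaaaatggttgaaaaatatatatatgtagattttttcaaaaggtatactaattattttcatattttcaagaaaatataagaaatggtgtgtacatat
UGT84A2: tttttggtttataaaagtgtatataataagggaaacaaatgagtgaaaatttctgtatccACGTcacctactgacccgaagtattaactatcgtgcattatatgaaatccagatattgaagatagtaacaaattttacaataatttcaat
Windows from 250 bases before to 50 after the start were searched in 27443 genes. ACCTACC was in 1.377% of these windows and, of the 10 genes, in 4CL3, where 2 copies begin 120 and 68 bases before the start. ACCAACC was in 3.29% of windows and in 3 of the 10 genes, with 2 copies in 4CL2 that begin 140 and 31 bases before the start, and 1 copy each in PAL1 and PAL2 just after it. ACCTAAC was in 2.882% of windows and in 0 of the 10. CACGTG was in 7.678% of windows and in PAL4, 117 bases before the start. ACGT, which every CACGTG contains, was in 49.936% of windows and in 7 of the 10 genes. None of these letters was found in the windows of C4H and FAH1. The AC elements are known as binding sequences of MYB factors in phenylpropanoid promoters and the ACGT core as one bound by bZIP factors such as HY5, but a match is a description of the letters.

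Most of the pathway rose in light, UGT84A2 early and most of the other genes later. Against darkness 4CL2 was called at no time, PAL4 was called only lower, and SNG1 was not called in cotyledons. UGT84A2 rose first, within 15 min in hypocotyls and 30 min in cotyledons. In cotyledons 4CL3, PAL2, C4H and FAH1 followed at 1 h, and PAL1 and 4CL1 at 3 h. In hypocotyls the next 7 genes were all first called at 3 h, and at 12 h PAL2 and PAL4 were called lower than in darkness. PAL1, 4CL1 and 4CL2 also had both 12 h libraries below both dark ones there, with differences too small for a call.

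A gene was called at a Benjamini-Hochberg adjusted p under 0.05 in limma and an absolute change of at least 1. In cotyledons limma called 0 of the 10 genes at 15 min, when 0.846% of all genes tested were called; 1 of the 10 had an unadjusted p under 0.05 and the authors' deposited table called 0. It called 1 of 10 at 30 min (3.37% of all genes), 5 at 1 h (11.3%), 7 at 3 h (24%), 7 at 6 h (28%) and 7 at 12 h (23.3%). All were higher in light except PAL4 at 6 h and 12 h. In hypocotyls it called 1 of 10 at 15 min (0.996% of all genes), 1 at 30 min (3.6%), 1 at 1 h (8.26%), 8 at 3 h (21.2%), 4 at 6 h (26.1%) and 5 at 12 h (30.8%). The genes called lower there were PAL2 and PAL4 at 12 h. At 1 h in hypocotyls the count was 2 with a pseudocount of 0.1 FPKM, without dark replicate B or without 1 h replicate A, FAH1 being the gene added.

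**Figure D1:**
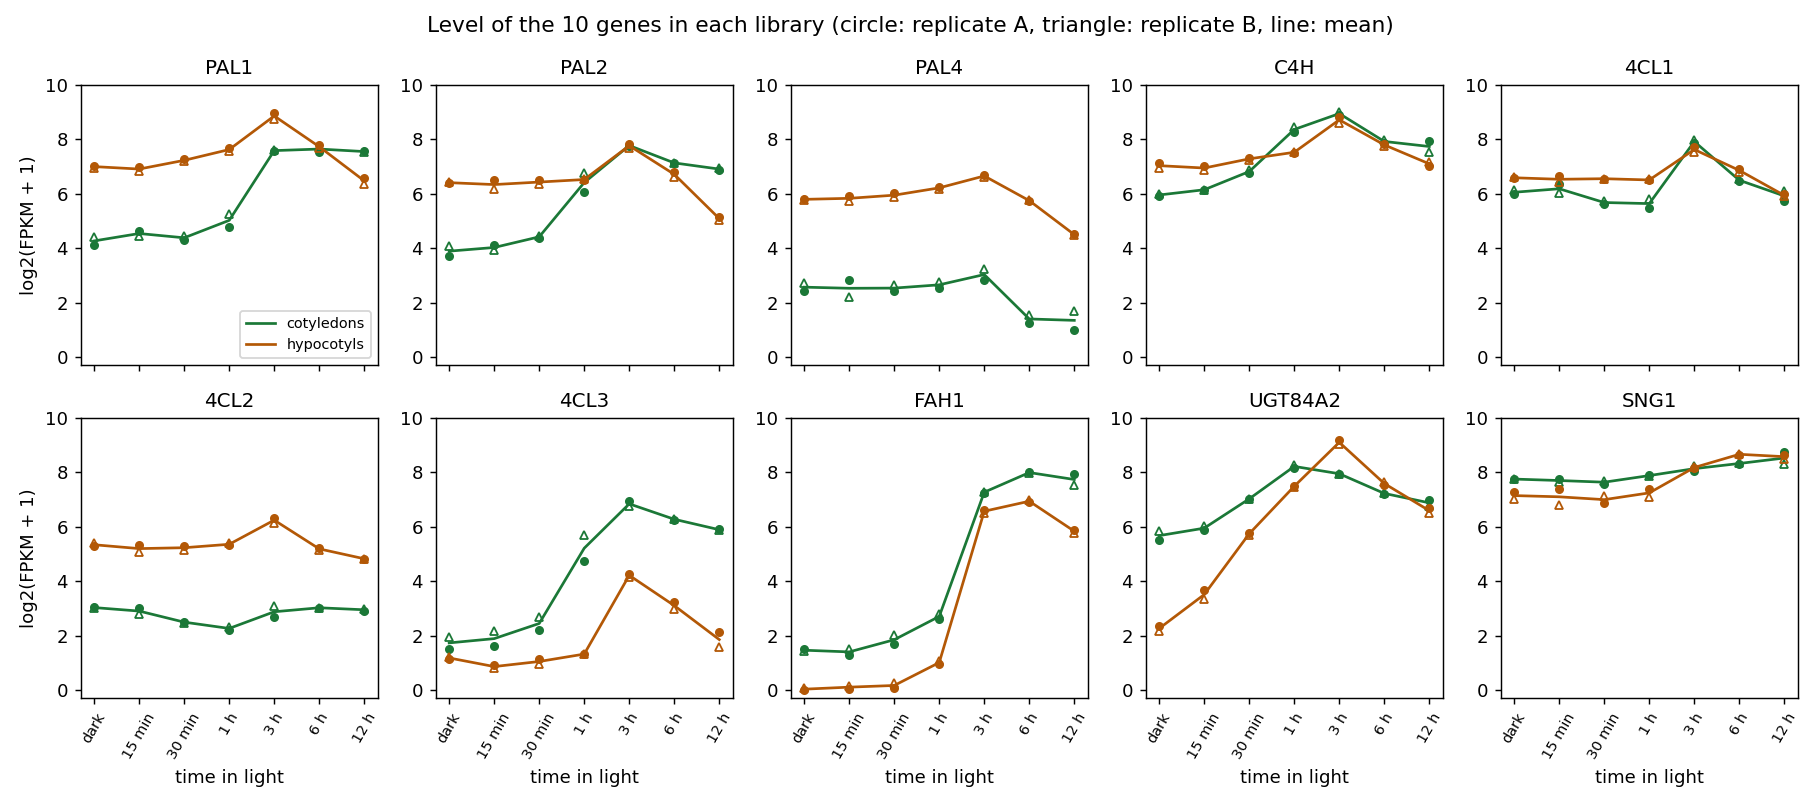
Level of each of the 10 genes on the log2(FPKM + 1) scale (vertical axis) against time in light (horizontal axis), with a circle for replicate A, a triangle for replicate B and a line through the mean of the 2 replicates, in cotyledons (green) and hypocotyls (brown). UGT84A2 leaves its dark level first, FAH1 climbs steeply between 1 h and 3 h in both tissues, and PAL4 and 4CL2 lie higher in hypocotyls at all 7 times.

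The PAL genes, which open the pathway, differed in light response. In cotyledons PAL1 held 16.6 and 20.2 FPKM in the dark libraries A and B, 23.8 and 21.0 after 15 min, 18.9 and 21.0 after 30 min, 26.5 and 37.8 after 1 h, 187 and 196 after 3 h, 187 and 213 after 6 h, and 189 and 185 after 12 h. Its libraries from 3 h on lay apart from all earlier ones, and those of 3 h, 6 h and 12 h overlapped. The change from darkness was 3.37 at 6 h (SE 0.136, limma adjusted p = 4.12e-14), or 10.84 times the dark mean. In hypocotyls PAL1 began far higher, at 131 and 124 FPKM in darkness, and reached 497 and 433 after 3 h before it came back to 221 and 203 after 6 h and 94.9 and 81.9 after 12 h. The rise at 3 h was 1.86 (SE 0.136, limma adjusted p = 2.46e-10). Both libraries of 12 h lay below both dark ones, a difference of -0.52 that was under the size required for a call.

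PAL2 began its rise earlier than PAL1 in cotyledons. It held 12.0 and 16.1 FPKM there in darkness, 16.3 and 14.5 after 15 min, 19.9 and 21.1 after 30 min, 66.0 and 108 after 1 h, 218 and 218 after 3 h, 138 and 141 after 6 h, and 116 and 123 after 12 h. The rise at 1 h was 2.52 (SE 0.163, limma adjusted p = 1.00e-10) and that of PAL1 at the same time was 0.76, not called except without replicate A of 1 h, where it was 1.00. With either 1 h replicate left out the change of PAL2 was 2.17 or 2.87, and replicate A, the library rich in chloroplast RNA, gave the lower one. In hypocotyls PAL2 held 83.6 and 84.8 FPKM in darkness, 90.3 and 92.25 after 1 h, 229 and 206 after 3 h, 111 and 97.9 after 6 h, and 34.6 and 31.7 after 12 h. It rose by 1.36 at 3 h (SE 0.163, limma adjusted p = 4.43e-07) and at 12 h it fell by 1.32 relative to darkness (limma adjusted p = 4.45e-07), to 0.394 of its dark mean.

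PAL4 was expressed mainly in hypocotyls and fell in both tissues at the later times. In hypocotyls it held 55.8 and 53.6 FPKM in darkness, 103 and 96.9 after 3 h, 52.5 and 53.3 after 6 h, and 22.2 and 21.2 after 12 h. The level at 3 h was 0.86 above darkness (SE 0.196), short of a call, and at 12 h PAL4 stood at -1.295 relative to darkness, a called decrease (limma adjusted p = 7.72e-06). In cotyledons PAL4 held 4.43 and 5.55 FPKM in darkness and 4.91 and 5.78 after 1 h. It held 6.197 and 8.38 FPKM after 3 h, 1.40 and 1.94 after 6 h, and 1.03 and 2.24 after 12 h. It fell by 1.17 at 6 h (SE 0.196, limma adjusted p = 2.91e-05) and by 1.22 at 12 h, the latter change being -0.88 and no longer called without replicate A of 12 h.

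The makeup of the PAL transcripts changed accordingly in cotyledons. Of the summed FPKM of PAL1, PAL2, PAL3 and PAL4 in darkness, PAL1 held 44.2% and 42.4% in libraries A and B, PAL2 32.0% and 33.6%, PAL3 (AT5G04230) 12.0% and 12.4%, and PAL4 11.8% and 11.6%. At 1 h PAL2 held 65.5% and 69.2%, above its share at every other time in that tissue. At 12 h PAL1 held 60.6% and 57.9%, PAL2 37.2% and 38.4%, and PAL4 0.329% and 0.700%. In hypocotyls PAL2 held 30.8% and 32.3% in darkness and 22.3% and 23.0% at 12 h, PAL1 went from 48.3% and 47.1% in darkness to 61.1% and 59.5% at 12 h, and PAL4 from 20.6% and 20.4% to 14.3% and 15.4%. These shares are descriptions with no test, and PAL1 and PAL2 share 1.09% and 1.11% of their 50-base stretches, so that few reads could fall to either gene.

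**Figure D2:**
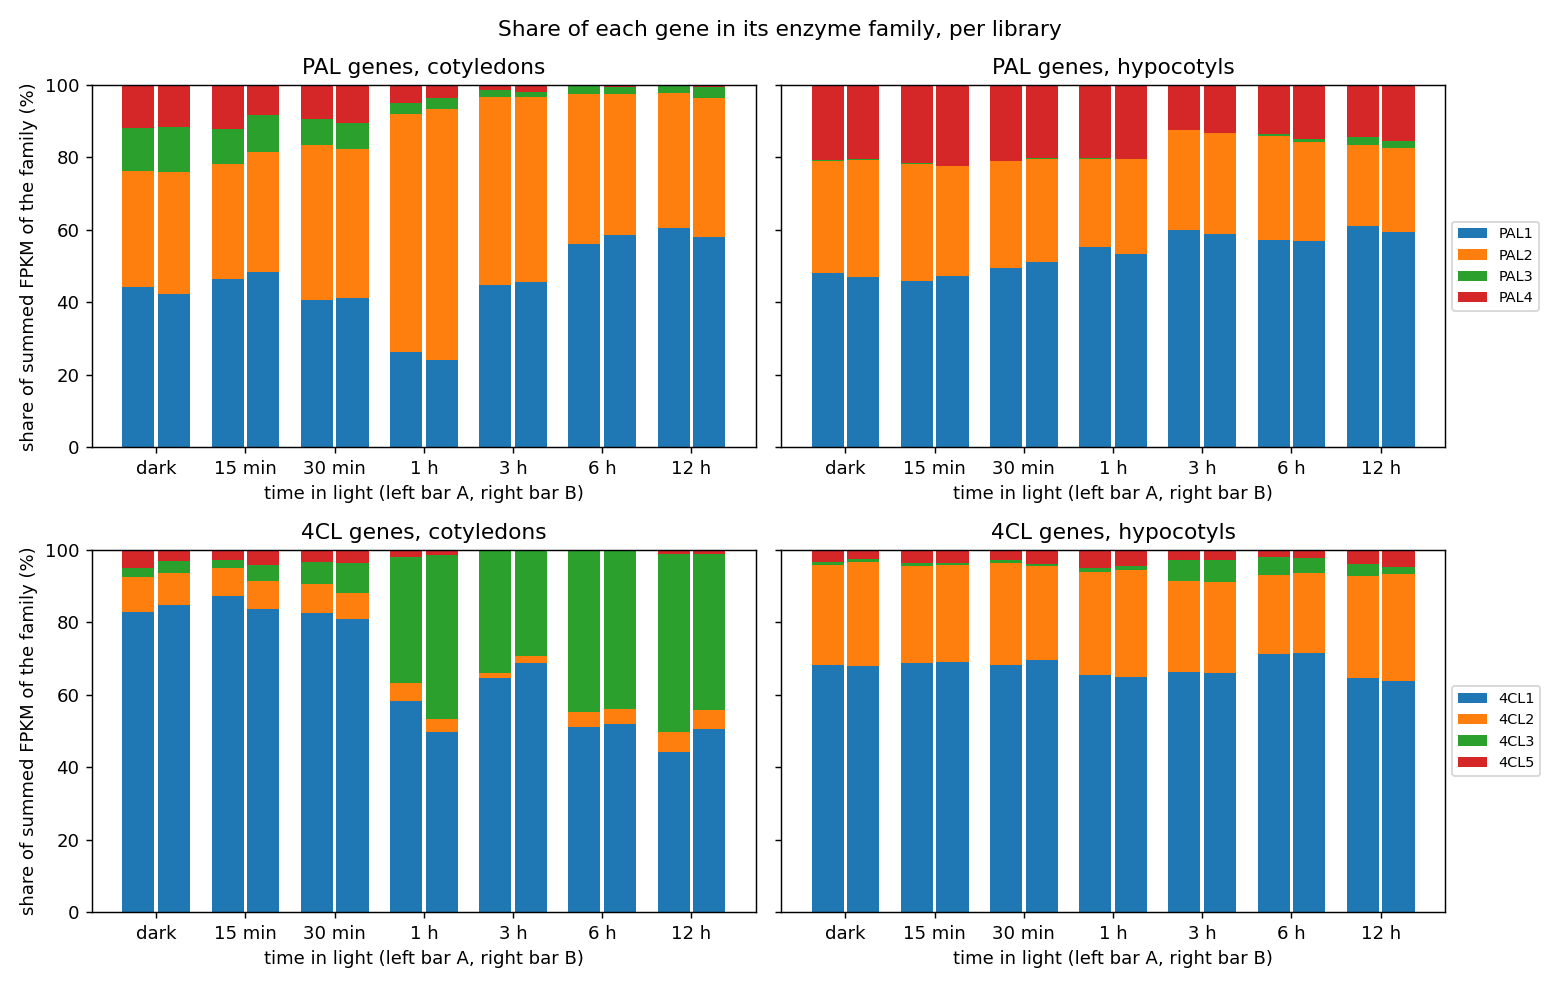
Share of each gene in the summed FPKM of its enzyme family (percent, vertical axis from 0) in each library, by time in light (horizontal axis), with the left bar of each pair for replicate A and the right for replicate B. In cotyledons 4CL3 grows from 2.47% and 3.52% of the 4CL sum in darkness to 49.2% and 43.1% at 12 h, and in hypocotyls it is 5.75% and 6.04% at its highest, at 3 h.

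C4H, the gene of the second step, had a higher mean FPKM than each lyase and ligase gene in cotyledons from 30 min on. At 12 h its lower library equalled PAL1. The mean of FAH1, the hydroxylase gene of the sinapate branch, was higher at 6 h, with 252.9 FPKM against 242.21 for C4H. At 12 h the means of FAH1 and C4H were 213.98 and 214.86 FPKM. C4H held 60.4 and 62.1 FPKM in cotyledons in darkness, 69.9 and 70.3 after 15 min, 107 and 118 after 30 min, 310 and 348 after 1 h, 474 and 513 after 3 h, 234 and 250 after 6 h, and 245 and 185 after 12 h. All libraries in light lay above both dark ones. The change was 0.86 at 30 min, under the size required for a call, and 2.99 at 3 h (SE 0.117, limma adjusted p = 2.41e-14). In hypocotyls C4H held 138 and 123 FPKM in darkness, 180 and 187 after 1 h, 456 and 387 after 3 h, 228 and 216 after 6 h, and 131 and 142 after 12 h. It was called there at 3 h only, with a change of 1.68 (SE 0.117, limma adjusted p = 1.17e-10), and at 12 h its libraries overlapped the dark ones. With quantile normalization the change at 6 h in hypocotyls was 1.04 and called, against 0.76 as reported.

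The ligase genes differed in tissue and in light response. 4CL3 was the ligase gene with the strongest response to light in cotyledons, where it held 1.87 and 2.86 FPKM in darkness, 2.07 and 3.47 after 15 min, 3.62 and 5.44 after 30 min, 25.7 and 50.2 after 1 h, 121 and 107 after 3 h, 75.6 and 77.04 after 6 h, and 58.8 and 57.8 after 12 h. Both libraries of every time from 30 min on lay above the dark ones. Its mean at 3 h was 48.11 times the dark mean, a change of 5.11 (SE 0.247, limma adjusted p = 1.27e-12). At 1 h replicate A was the lower of an unequal pair, and the change of 3.48 was 3.945 without it and 3.01 without replicate B. In hypocotyls 4CL3 held 1.21 and 1.33 FPKM in darkness, 1.48 and 1.52 after 1 h, 18.2 and 17.0 after 3 h, 8.46 and 6.81 after 6 h, and 3.41 and 1.97 after 12 h. It rose by 3.03 at 3 h (SE 0.247, limma adjusted p = 2.41e-09) and 1.92 at 6 h, and the 0.67 of 12 h was not called.

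4CL1 responded as a brief peak. In cotyledons it held 62.7 and 68.9 FPKM in darkness, 43.35 and 55.35 after 1 h, 232 and 251 after 3 h, 87.3 and 91.9 after 6 h, and 52.7 and 67.7 after 12 h. Only the libraries of 3 h gave a call, with a change of 1.86 (SE 0.129, limma adjusted p = 1.24e-10). In hypocotyls 4CL1 held 94.2 and 96.7 FPKM in darkness, 209 and 186 after 3 h, and 62.2 and 59.05 after 12 h. Its change at 3 h was 1.04 (SE 0.129, limma adjusted p = 7.42e-07), and 0.95 and not called without replicate A of 3 h. An annotated gene on the other strand, AT1G51670, overlaps 4CL1, and the sources used here do not say whether strand was used in counting.

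4CL2, the other ligase gene known for lignin, was called in neither tissue at any time. In cotyledons its libraries ran from 3.59 FPKM at 1 h to 7.49 FPKM at 3 h, against 7.355 and 7.001 in darkness. The 1 h libraries A and B held 3.59 and 4.04 FPKM there, a difference of -0.77 from darkness (SE 0.122, limma adjusted p = 3.43e-05), under the size required. In hypocotyls it held 38.1 and 40.9 FPKM in darkness, 79.4 and 70.2 after 3 h, and 27.2 and 27.4 after 12 h. The 3 h libraries stood above all others of that tissue, with a difference of 0.90 from darkness (SE 0.122).

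The share of 4CL3 in the summed FPKM of 4CL1, 4CL2, 4CL3 and 4CL5 thus grew in cotyledons from 2.47% and 3.52% in darkness to 34.7% and 45.2% at 1 h and 49.2% and 43.1% at 12 h. That of 4CL1 went from 82.9% and 84.8% to 44.2% and 50.5% over the same 12 h. In hypocotyls 4CL1 held 63.7% to 71.6% and 4CL2 21.8% to 29.6% in every library, and 4CL3 at most 6.04%.

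FAH1, the hydroxylase gene of the sinapate branch, was nearly silent in darkness and among the genes with the highest changes from darkness in both tissues. In cotyledons it held 1.83 and 1.70 FPKM in darkness, 1.445 and 1.86 after 15 min, 2.20 and 3.06 after 30 min, 5.11 and 5.97 after 1 h, 151 and 155 after 3 h, 256 and 250 after 6 h, and 245 and 183 after 12 h. Dark libraries and those of 15 min overlapped, and every later time lay above both. The mean at 6 h was 143.4 times the dark mean, a change of 6.52 (SE 0.131, limma adjusted p = 3.77e-18), which ranked 17 from the top among 18678 genes. The step between 1 h and 3 h alone was 4.56 (SE 0.131, limma adjusted p = 7.79e-15).

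In hypocotyls FAH1 was listed at 0 and 0.0504 FPKM in darkness, so that no fold is given. It held 0.0418 and 0.117 FPKM at 15 min, 0.0553 and 0.202 after 30 min, 0.945 and 1.09 after 1 h, 97.5 and 90.4 after 3 h, 119 and 124 after 6 h, and 58.1 and 54.1 after 12 h. The libraries of 3 h to 12 h lay far above all earlier ones. The differences in log2(FPKM + 1) were 0.98 at 1 h, 6.53 at 3 h, 6.90 at 6 h and 5.80 at 12 h (SE 0.131 each, limma adjusted p = 6.02e-06, 6.10e-19, 6.30e-19 and 4.13e-18), the first of them not called for its size. In the authors' deposited table the log2 fold of FAH1 in hypocotyls was 11.84 at 3 h, 12.24 at 6 h and 11.12 at 12 h with q-values of 0.300, 0.280 and 0.319, so that by that table it was not called at these times.

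UGT84A2, which makes the sinapoylglucose that SNG1 uses, was the first of the 10 genes to rise and reached the highest level of any of them in hypocotyls. There it held 4.10 and 3.53 FPKM in darkness, 11.7 and 9.18 after 15 min, 53.6 and 51.4 after 30 min, 181 and 175 after 1 h, 575 and 520 after 3 h, 183 and 199 after 6 h, and 101 and 89.7 after 12 h. No neighbouring times in the order of levels overlapped. The mean was 2.74 times the dark mean at 15 min (change 1.24, SE 0.117, limma adjusted p = 5.00e-07), 13.77 times at 30 min, 46.66 times at 1 h and 143.5 times at 3 h (change 6.83, SE 0.117, limma adjusted p = 7.86e-20). Its change ranked 111 from the top among 18678 genes at 15 min, 40 at 30 min, 26 at 1 h and 19 at 3 h.

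In cotyledons UGT84A2 began higher and peaked sooner. It held 44.7 and 55.9 FPKM in darkness, 57.8 and 63.7 after 15 min, 129 and 129 after 30 min, 287 and 305 after 1 h, 246 and 245 after 3 h, 147 and 150 after 6 h, and 125 and 109 after 12 h. Every library in light lay above both dark ones, and those of 1 h were the highest. The change was 1.35 at 30 min (SE 0.117, limma adjusted p = 3.49e-08), 2.54 at 1 h, and 1.20 at 12 h, which was 0.94 and not called with quantile normalization.

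SNG1, the last gene of the branch, was abundant in darkness and rose modestly and late. In cotyledons it held 214 and 214 FPKM in darkness, 235 and 234 after 1 h, 262 and 298 after 3 h, 316 and 322 after 6 h, and 425 and 317 after 12 h. The 2 libraries of each time from 1 h on lay above the dark ones, but no difference reached the size for a call, the highest being 0.77 at 12 h (SE 0.158). With quantile normalization the difference at 6 h was -0.03, against 0.57 as reported. In hypocotyls SNG1 held 154 and 128 FPKM in darkness, 167 and 135 after 1 h, 287 and 288 after 3 h, 395 and 411 after 6 h, and 399 and 361 after 12 h. It rose by 1.03 at 3 h (SE 0.158, limma adjusted p = 1.16e-05), where it was 0.90 and not called without dark replicate B, by 1.52 at 6 h (limma adjusted p = 4.48e-08) and by 1.43 at 12 h. Of the 5 epidermis markers in hypocotyls at 6 h, 2 were called lower and 3 were not called, with a median difference of -0.22. Those called were PDF1, from 1110 and 980 FPKM in darkness to 135 and 130 after 6 h, and FDH, and their part in these results was not tested.

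**Figure D3:**
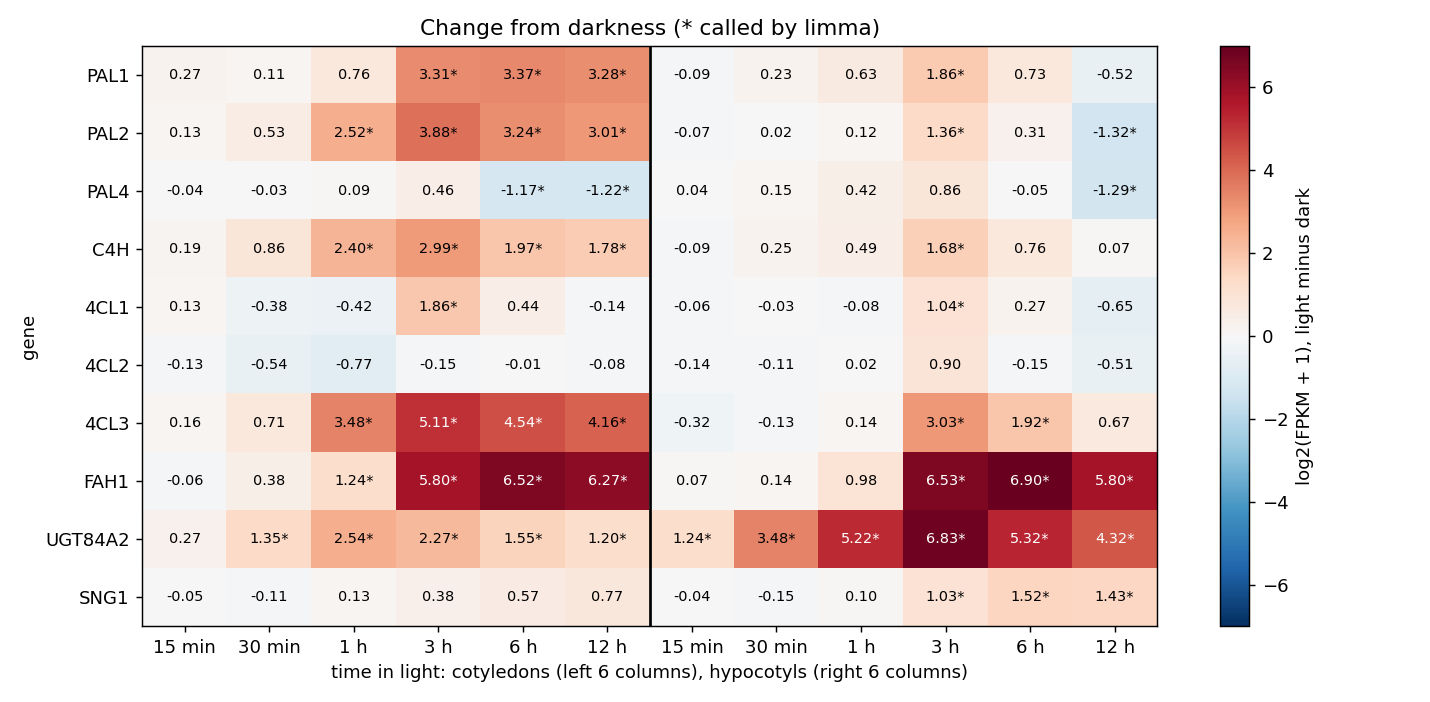
Change from darkness of each gene (rows) at each time in light (columns, cotyledons left and hypocotyls right) as a difference of log2(FPKM + 1) between the mean of 2 light and 2 dark libraries. Red stands for higher and blue for lower in light, and a star marks the changes called by limma. FAH1 and UGT84A2 hold the highest values, 6.90 and 6.83 in hypocotyls, and PAL4 the only called decreases in cotyledons.

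The step from 1 h to 3 h, which does not use the dark libraries, held much of the response. In cotyledons 5 of 10 genes rose between these times, when 10.3% of all genes tested were called, namely FAH1, PAL1, 4CL1, 4CL3 and PAL2 with changes of 4.56, 2.56, 2.28, 1.63 and 1.36. UGT84A2 was already past its peak there, with a difference of -0.27 that was not called. In hypocotyls 7 of 10 rose, when 11.5% of all genes tested were called. The genes not called in that step were SNG1, 4CL2 and PAL4, and SNG1 was called with quantile normalization (1.03) or without replicate A of 1 h (1.08).

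From 6 h to 12 h the differences were below 0 for 9 of the 10 genes in cotyledons, all but SNG1, and for 10 of 10 in hypocotyls. In cotyledons 0 of 10 genes were called between these times, when 3.62% of all genes tested were; 2 of the 10, 4CL1 and UGT84A2, had an unadjusted p under 0.05, with differences of -0.58 and -0.35. In hypocotyls 5 of 10 fell, when 3.29% of all genes tested were called. PAL2 fell by 1.62, PAL1 fell by 1.25, PAL4 fell by 1.25, 4CL3 fell by 1.25 and FAH1 fell by 1.10. UGT84A2 stood just short of a call at -0.997 and was called with a pseudocount of 0.1 FPKM, with quantile normalization and without replicate A of 6 h or of 12 h. The 4CL3 change was -0.96 and not called without replicate B of 12 h. The difference between the tissues in this step was not tested.

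In darkness PAL1, PAL2, PAL4, C4H and 4CL2 stood higher in hypocotyls, and UGT84A2 and FAH1 higher in cotyledons. PAL3, which is not one of the 10 genes, held 4.53 and 5.91 FPKM in dark cotyledons and 0.868 and 0.668 FPKM in dark hypocotyls. Limma called 7 of 10 genes between the tissues, against 44.5% of all genes tested. PAL4, PAL1, PAL2, 4CL2 and C4H were higher in hypocotyls, with differences of 3.22, 2.73, 2.51, 2.31 and 1.08, and UGT84A2 and FAH1 were lower there, with differences of -3.41 and -1.43. The mean of PAL1 was 6.904 times and that of PAL4 10.97 times as high in hypocotyls, while that of UGT84A2 was 13.19 times as high in cotyledons. All 10 xylem and secondary wall markers were also called higher in dark hypocotyls, with a median difference of 1.62. Their part in the higher level of PAL1, PAL2, PAL4, C4H and 4CL2 was not tested. The C4H difference was 0.94 with quantile normalization and 0.99 without hypocotyl replicate A, not called in either.

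Over the time in light this pattern turned round for PAL1 and PAL2 and stayed for PAL4 and 4CL2. At 1 h limma called 5 of 10 genes between the tissues (42.3% of all genes), 3 higher and 2 lower in hypocotyls, at 6 h 4 of 10 (45% of all genes), 2 higher and 2 lower, and at 12 h 6 of 10 (35.2% of all genes), 2 higher and 4 lower. PAL2 had means of 86.9 FPKM in cotyledons and 91.3 in hypocotyls at 1 h, a difference of 0.11 that was not called, and by 12 h it was lower in hypocotyls by -1.82 (SE 0.163, limma adjusted p = 3.81e-09). PAL1 reached the same point later, with 200 and 212 FPKM at 6 h, and was lower in hypocotyls at 12 h by -1.08 (SE 0.136, limma adjusted p = 5.47e-07), though not called with quantile normalization (-0.79) or without hypocotyl replicate B of 12 h (-0.97). PAL4 and 4CL2 were higher in hypocotyls at all 4 times compared, PAL4 by 3.15 to 4.34 and 4CL2 by 1.87 to 3.09. 4CL3 was lower there at 1 h, 6 h and 12 h, by -3.89, -3.17 and -4.03, and was 21.66 times as high in cotyledons at 12 h. FAH1 was lower in hypocotyls at each of the 4 times, at 6 h by -1.05, which was -0.57 and not called with quantile normalization. The xylem markers were called higher in hypocotyls in 7 of 10 cases at 1 h, 9 of 10 at 6 h and 10 of 10 at 12 h, and called in 0 of 10 cases between light and darkness in either tissue.

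**Figure D4:**
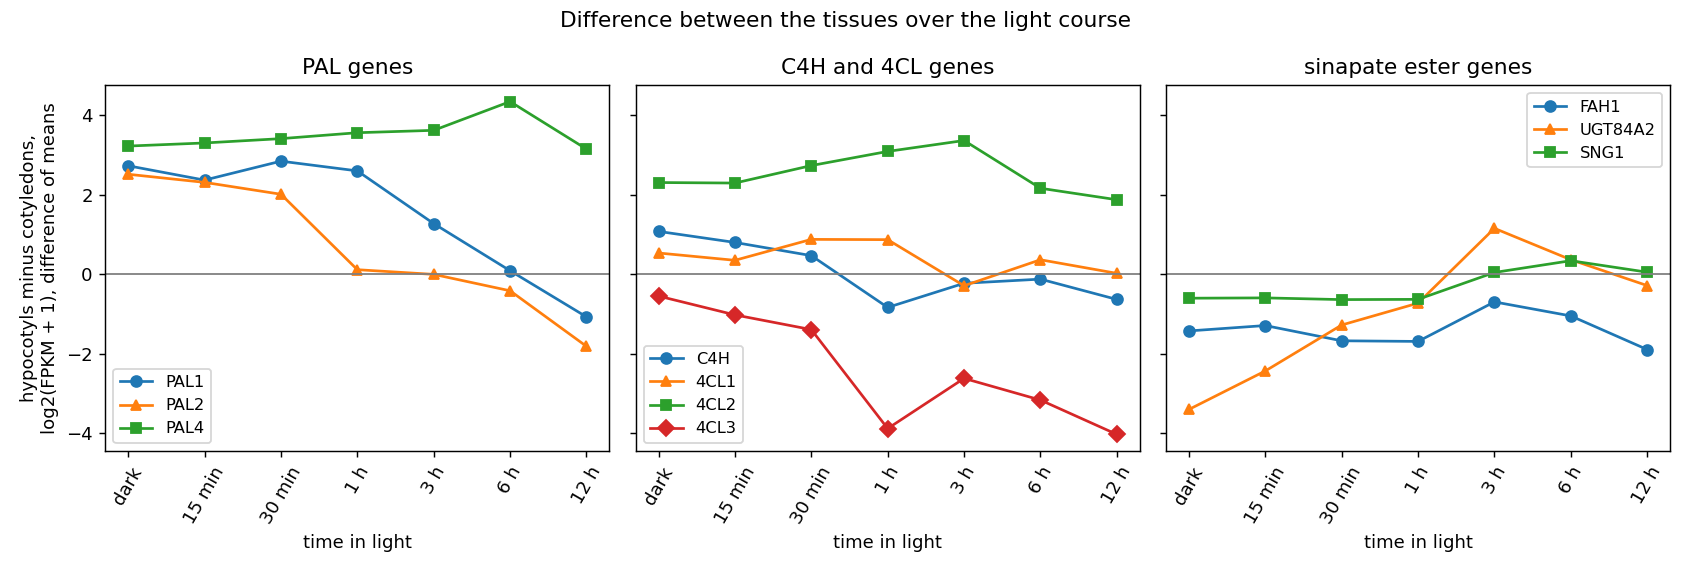
Hypocotyls minus cotyledons in mean log2(FPKM + 1) (vertical axis) against time in light (horizontal axis), each point from 2 libraries of each tissue, for the PAL genes, for C4H and the 4CL genes, and for the sinapate ester genes. PAL1 and PAL2 pass from 2.73 and 2.51 in darkness to -1.08 and -1.82 at 12 h, and UGT84A2 passes from -3.41 in darkness to 1.15 at 3 h.

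The change from darkness itself was compared between the tissues at 4 times, as the change in hypocotyls minus that in cotyledons. Limma called 4 of 10 genes at 1 h (9.9% of all genes), 6 at 3 h (29%), 6 at 6 h (36.9%) and 5 at 12 h (33.8%). UGT84A2 had the larger change in hypocotyls at all 4, by 2.68, 4.56, 3.77 and 3.12. 4CL3, C4H and PAL2 had the larger change in cotyledons at all 4, PAL2 by up to -4.33 at 12 h (SE 0.23, limma adjusted p = 3.49e-12), and PAL1 from 3 h on, by -1.46, -2.64 and -3.80. The 2 tissues lay further apart in PAL1, PAL2 and C4H in darkness than at any of these 4 times. With quantile normalization the differences of C4H at 3 h and 6 h were -0.55 and -0.42 and that of PAL1 at 3 h was -0.96, and none of these was called.

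The change of FAH1 was not called as different between the tissues at any of the 4 times, with differences of -0.26, 0.73, 0.38 and -0.47 (SE 0.185). With a pseudocount of 0.1 FPKM the one at 3 h was 3.22 and called. FAH1 held 0 and 0.0504 FPKM in dark hypocotyls and 1.83 and 1.70 FPKM in dark cotyledons, so these differences depend on the pseudocount. Those at 1 h, 6 h and 12 h were not compared under the alternatives, so a like change in both tissues cannot be read from them. SNG1 likewise gave no call, with 0.94 at 6 h (SE 0.223, limma adjusted p = 0.00102), but with quantile normalization its differences were 1.24 at 3 h, 1.81 at 6 h and 1.43 at 12 h, all called, and at 6 h it was 1.08 and called without hypocotyl dark replicate A. 4CL2 was called at 3 h with 1.06 and PAL4 at 6 h with 1.12, and either call was lost when single libraries were left out. The former was 0.85 without cotyledon replicate A of 3 h, 0.97 without hypocotyl replicate A of 3 h and 0.98 with quantile normalization, and the latter 0.99 without cotyledon dark replicate B and 0.97 without cotyledon replicate A of 6 h.

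Across the 14 group means of log2(FPKM + 1), which share tissues and dark libraries, the members varied in likeness. Pearson correlation was 0.94 between PAL4 and 4CL2, 0.92 between FAH1 and SNG1, 0.89 between PAL2 and C4H and 0.88 between PAL1 and PAL2, and it was lowest between PAL4 and 4CL3, at -0.57. Among 14554 other genes whose mean reached 5 FPKM, those most like PAL1 were OMT1 (0.98), AT1G03250 (0.97) and DHS3 (0.97). Those most like 4CL3 were AT1G24267 (0.97), EX1 (0.97) and KAT5 (0.96), and those most like SNG1 were THI1 (0.97), AT1G52270 (0.97) and ETT (0.97).

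Genes that supply phenylalanine, from the shikimate pathway to arogenate dehydratase, rose in cotyledons with PAL1 and PAL2. Of 20 tested, 3 rose and 0 fell at 1 h, 13 and 0 after 3 h, 14 and 0 after 6 h, and 9 and 0 after 12 h, with a median change of 1.41 at 6 h against 0.03 over all genes. These times had 11.3%, 24%, 28% and 23.3% of all genes tested called. In hypocotyls 8 rose and 0 fell at 3 h, 5 and 0 after 6 h, and 4 and 1 after 12 h (21.2%, 26.1% and 30.8% of all genes), and the median change there was 0.25 at 6 h against 0.01 over all genes. CM1, a chorismate mutase, went from 19.6 and 15.7 FPKM in dark cotyledons to 135 and 142 after 6 h (change 2.91, SE 0.127), and DHS3, which makes the first committed compound of the shikimate pathway, from 15.98 and 15.9 to 110 and 117 (change 2.75, SE 0.123). In hypocotyls DHS3 was the gene that fell at 12 h, from 114 and 105 FPKM in darkness to 54.7 and 51.4. ADT4, an arogenate dehydratase, rose by 2.49 in cotyledons and 1.73 in hypocotyls at 6 h, where ADT1 and DHS2 also rose, by 1.798 and 1.65.

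Of the other genes of the general pathway, 4 tested, 0 rose at 6 h in either tissue and 2 fell in cotyledons, where 28% of all genes tested were called. ATR1, a reductase that passes electrons to cytochrome P450 enzymes such as C4H, fell there from 144 and 153 FPKM to 29.4 and 26.6 (change -2.37, SE 0.104), and the ligase gene 4CL5 fell by 1.27. Of 9 genes of the monolignol and lignin branch, 7 rose and 0 fell at 3 h in cotyledons, 6 rose and 1 fell at 6 h, against 24% and 28% of all genes called. In hypocotyls 4 rose and 0 fell at 3 h, 3 rose and 1 fell at 6 h, and 0 rose and 1 fell at 12 h, against 21.2%, 26.1% and 30.8% of all genes, and the median difference at 12 h was -0.07. CAD4, a cinnamyl alcohol dehydrogenase, rose from 15.6 and 23.4 FPKM to 275 and 279 after 6 h in cotyledons and by 1.51 in hypocotyls. OMT1, a methyltransferase that also serves sinapate and flavonol synthesis, rose by 2.54 in cotyledons at 6 h, and CSE, caffeoylshikimate esterase, fell by 1.74 in hypocotyls. CCR1, a cinnamoyl-CoA reductase, rose by 1.77 in cotyledons and 1.22 in hypocotyls, but an overlapping gene on the other strand makes its values uncertain.

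Of the 9 other sinapate genes and their relatives tested, 3 rose and 0 fell at 1 h in cotyledons, 4 rose and 1 fell at 3 h, and 1 rose and 0 fell at 6 h, against 11.3%, 24% and 28% of all genes called. In hypocotyls 4 rose and 0 fell at 3 h and 4 rose and 1 fell at 6 h, against 21.2% and 26.1% of all genes. SCPL10, a serine carboxypeptidase-like acyltransferase gene close to SNG1 on chromosome 2 that is known to move the sinapoyl group to anthocyanins, was listed at 0 and 0.075 FPKM in dark cotyledons and at 81.1 and 86.9 after 6 h. In hypocotyls it was listed at 0 and 0.125 FPKM in darkness and at 85.7 and 80.5 after 6 h (change 6.31, SE 0.152, limma adjusted p = 1.16e-17). SCPL9, its relative, rose by 1.51 in hypocotyls at 6 h, and SCPL11, another relative, fell by 2.07, from 131 and 126 FPKM to 29.8 and 30.1.

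All 6 early flavonoid enzymes tested rose at 6 h in both tissues, with median changes of 4.63 in cotyledons and 5.72 in hypocotyls against 0.03 and 0.01 over all genes, of which 28% and 26.1% were called. CHS, chalcone synthase, rose by 4.67 in cotyledons, where its dark libraries were unequal at 10.7 and 47.7 FPKM, so that the change was 3.64 without dark replicate A and 5.70 without dark replicate B. It was listed at 0 in 1 dark hypocotyl library, with a change of 7.88 there. CHIL rose by 5.36 in cotyledons, or by 4.69 without dark replicate A and 6.04 without dark replicate B. FLS1 rose by 4.80 in cotyledons, or by 4.34 without dark replicate A and 5.26 without dark replicate B. In hypocotyls FLS1 rose by 5.84, from 0.0541 and 0 FPKM in darkness. F3H rose by 7.31 in hypocotyls, from 0.263 and 0.312 FPKM in darkness, and a gene on the other strand overlaps 93.2% of its stretches.

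Of 17 regulators of the pathway tested, 7 rose and 4 fell at 1 h and 5 rose and 5 fell at 6 h in cotyledons, and 3 rose and 1 fell at 1 h and 6 rose and 1 fell at 6 h in hypocotyls. All genes tested had 11.3% and 28% called at these times in cotyledons and 8.26% and 26.1% in hypocotyls, and the median differences of the regulators were 0.09, -0.40, 0.27 and 0.19 in the same order. HY5 and HYH, bZIP factors of light signalling, rose by 3.97 and 5.81 after 1 h in hypocotyls, and HYH by 6.60 at 6 h. MYB75, a regulator of anthocyanin synthesis, rose by 5.02 at 6 h in cotyledons and was listed at 0 in both dark hypocotyl libraries and at 11.01 and 12.1 FPKM at 6 h. The flavonol regulators MYB12, MYB11 and MYB111 rose by 2.47 at 1 h in hypocotyls, 2.97 at 6 h in cotyledons and 3.29 at 1 h in cotyledons. MYB12 was listed at 0 and 0.0652 FPKM in dark hypocotyls and MYB11 at 0.0767 and 0.188 FPKM in dark cotyledons. The sizes of both changes therefore depend on the pseudocount. MYB111 held 3.25 and 8.59 FPKM in dark cotyledons and 52.6 and 71.8 after 1 h, and its change was 2.705 without dark replicate A and 3.88 without dark replicate B. KFB20, one of the F-box proteins known to mark PAL enzymes for degradation, fell by 3.88 at 1 h and fell by 2.53 at 6 h in cotyledons. It held 144 and 111 FPKM there in darkness and 13.1 and 4.34 after 1 h, and the change at 1 h was -4.58 without replicate A of 1 h and -3.18 without replicate B. KFB39, of the same group, was listed at 0 in both cotyledon libraries of 1 h and at 29.4 and 22.6 FPKM in darkness, but it lies wholly within the span of another gene on the other strand, so that its values are uncertain.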

How the data were processed

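Poly(A) RNA-seq of 28 libraries was used. The deposited values were FPKM from Cuffnorm, whose version the sources used here do not give. Per the submitters' processing notes, CASAVA 1.8.2 and TopHat2 2.0.8 were used and Cuffdiff 2.1.1 gave the authors' deposited log2 fold changes and q-values. The build named is TAIR10, and the sources used here do not say whether strand was used in counting; the titles call the libraries stranded and the kit named is TruSeq v2.

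From these values, limma 3.58.1 (R 4.3.3) was run on log2(FPKM + 1) of the 18678 genes whose mean reached 1 FPKM, with a mean for each of 14 groups, 14 residual degrees of freedom and eBayes with trend and robust estimation. Benjamini-Hochberg adjustment was made separately in each of 24 contrasts. Calls needed an adjusted p under 0.05 together with an absolute change of at least 1. The procedure was tested on simulated data. Read totals were not used; relative depth came from the steps between low FPKM values, where 84.5% of the 24983 values worth 2 to 5 reads fell within 0.1 of a whole read (20.0% if spread evenly), and it sets the precision of low values. No pair of libraries was identical (0 pairs).

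Promoters and overlaps were read from TAIR10.1, which matched 32810 loci and left 747 without a match. The members and gene lists were chosen with earlier results of these data known. Named beside the 10 genes were up to 3 called genes of each list with the largest change at 6 h in each tissue (for regulators also at 1 h), and the 3 genes most alike PAL1, 4CL3 and SNG1. Alternatives were a pseudocount of 0.1 FPKM, no filter, quantile normalization, a replicate block, each library left out and the authors' Cuffdiff table. Tables and figures were made with pandas 2.3.3, numpy 2.4.6, matplotlib 3.10.9 and Python 3.11.15.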

Additional observations from a re-analysis of the deposited data

Results flagged for a closer look

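The change from darkness differed between the tissues, by the limma test of the difference itself (hypocotyls minus cotyledons on the log2 scale, 2 libraries a group), in 21 cases spread over 7 of the 10 genes. These were 4 of 10 genes at 1 h, 6 at 3 h, 6 at 6 h and 5 at 12 h. Of all genes tested, 9.9%, 29%, 36.9% and 33.8% were called at the same times. It was larger in hypocotyls for UGT84A2, with 2.68 at 1 h, 4.56 at 3 h, 3.77 at 6 h and 3.12 at 12 h. It was larger in cotyledons for PAL2, with -2.40 at 1 h, -2.52 at 3 h, -2.93 at 6 h and -4.33 at 12 h. It was also larger in cotyledons for 4CL3, with -3.33 at 1 h, -2.07 at 3 h, -2.62 at 6 h and -3.48 at 12 h. It was larger in cotyledons for C4H, with -1.91 at 1 h, -1.31 at 3 h, -1.20 at 6 h and -1.71 at 12 h. It was larger in cotyledons for PAL1 from 3 h on, with -1.46 at 3 h, -2.64 at 6 h and -3.80 at 12 h. 4CL2 at 3 h and PAL4 at 6 h had a more positive change in hypocotyls, by 1.06 and 1.12, and both lost the call when single libraries were left out. With quantile normalization C4H at 3 h and 6 h was -0.55 and -0.42, PAL1 at 3 h was -0.96 and 4CL2 at 3 h was 0.98, none of them called.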

How the results depend on the processing

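The alternatives were compared over the 24 counts of called genes and over 148 changes. Uncalled changes well under the size required for a call were left out of the 148. Calls gained or signs reversed among those left out are therefore not in the tallies of changes given here. The fit with the replicate block kept every one of these counts and calls (members called at 3 h in hypocotyls: 8 with the replicate block and 8 without). The letters A and B were not taken as pairs, since the deviations of same-lettered libraries correlated at -0.112 to 0.163 over 91 pairs of groups, over 0.1 in 3. The count of genes called at 1 h in hypocotyls was 1 as reported and 2 with a pseudocount of 0.1 FPKM, and it ranged from 1 to 2 when single libraries were left out. No other count moved by over 1.5 times. With quantile normalization the difference of SNG1 in cotyledons at 6 h was -0.02733, of opposite sign to the uncalled 0.57 reported, 8 calls were lost and 6 were gained. Leaving out single libraries lost 10 and gained 8 calls over 704 fits of a change. The authors' Cuffdiff table differed in 4 of 65 changes, FAH1 in hypocotyls at 3 h, 6 h and 12 h and 4CL3 in hypocotyls at 12 h, called there at 1.08. Leaving PAL3 and 4CL5 out of the family sums moved 14 of 36 shares by more than the spread of replicates. The causes were not tested. With 2 libraries a group, the spread is estimated from all groups together, and values near 0 such as FAH1 in dark hypocotyls rest on few reads.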
